A study of Mus musculus with 4 samples.

Results

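Trp73, Cdkn2b and Fas are 3 mouse genes whose products restrain growth or end the life of a cell. They were taken by symbol from a deposited table of 1593 genes, and 3 of 3 were found there. RNA was sequenced from 46C cells, a clonal mouse embryonic stem cell line with a green fluorescent reporter at Sox1, after 24 h in serum. The PC group received 1 µM PD0325901, which inhibits MEK, the kinase above ERK, together with CID755673, a protein kinase D inhibitor. The labels used here state no dose for it. The PD group received 1 µM PD0325901 alone, so MEK was inhibited in both groups. Each group had 2 libraries, and no label says whether they came from separate cultures, so the spread between them may be technical.

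Trp73 encodes p73, a transcription factor of the p53 family. It has an upstream promoter that gives the transactivating TA forms and an internal promoter that gives the ΔN forms, which lack the amino-terminal transactivation domain and can oppose p53 and p73. Cdkn2b encodes p15INK4b, which binds CDK4 and CDK6 and so blocks their partnership with D-type cyclins at the G1/S step. It is a classical target of TGF-beta. Fas encodes the death receptor CD95, which on binding Fas ligand recruits FADD and caspase-8, and it is a known p53 target.

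The table had been selected by the authors on the comparison of PC with PD. No listed gene has an absolute log2 change below 1, and the largest listed p-value is 0.0498. The relation of the false discovery rates to the p-values gives 31432 genes tested. Of the listed genes, 61.5% had lower values in PC, and in 99.7% both PC libraries lay on the same side of both PD libraries. All 3 genes have a false discovery rate below 0.05 in the authors' deposited table, as have 70.2% of the listed genes, and nothing is read from that share. The change of the 3 genes between PC and PD is therefore given as a description, with no test. In a culture, fewer cells with a transcript and less of it per cell cannot be told apart.

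The sequences before the transcription starts are shown because the 3 genes were listed in the same direction, and because Trp73 has 2 starts that the gene-level values do not separate. Each is the 250 bases before a RefSeq start on build GRCm38.p6, written 5′ to 3′ on the strand of the gene. All 3 genes matched the RefSeq table by symbol, in 4 windows. Capitals mark every match, on either strand, to the GC box GGGCGG, the cyclic AMP response element TGACGTCA, the AP-1 motif TGANTCA or the E-box CACGTG.
Trp73, upstream start, chr4:154139876-154140125, minus strand: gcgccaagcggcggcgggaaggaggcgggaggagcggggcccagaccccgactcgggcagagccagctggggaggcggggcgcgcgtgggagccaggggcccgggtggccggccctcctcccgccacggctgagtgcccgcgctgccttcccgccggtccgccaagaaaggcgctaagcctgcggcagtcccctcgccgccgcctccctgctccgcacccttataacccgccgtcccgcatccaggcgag
Trp73, internal start, chr4:154097174-154097423, minus strand: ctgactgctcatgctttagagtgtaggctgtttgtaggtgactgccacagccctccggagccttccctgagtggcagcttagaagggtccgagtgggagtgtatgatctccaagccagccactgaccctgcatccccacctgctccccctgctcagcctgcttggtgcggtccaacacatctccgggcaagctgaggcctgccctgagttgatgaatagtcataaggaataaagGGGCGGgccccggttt
Cdkn2b, chr4:89311033-89311282, minus strand: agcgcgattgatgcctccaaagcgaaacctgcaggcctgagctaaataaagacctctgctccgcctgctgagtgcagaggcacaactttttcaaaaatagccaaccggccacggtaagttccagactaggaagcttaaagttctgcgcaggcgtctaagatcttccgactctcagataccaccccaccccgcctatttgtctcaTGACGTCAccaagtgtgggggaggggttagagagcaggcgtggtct
Fas, chr19:34290409-34290658, plus strand: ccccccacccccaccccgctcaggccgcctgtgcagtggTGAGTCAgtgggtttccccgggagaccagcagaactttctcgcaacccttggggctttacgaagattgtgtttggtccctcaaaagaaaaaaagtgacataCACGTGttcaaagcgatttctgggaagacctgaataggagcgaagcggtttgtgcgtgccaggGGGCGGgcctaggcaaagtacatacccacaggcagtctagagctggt

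The 2 Trp73 windows differed in base composition. The upstream window had 77.2% G and C with 31 CpG sites, against 58.4% and 6 CpG sites in the internal window, and the median over 32851 mouse windows of this length was 52.4% and 6 CpG sites. Cdkn2b had 53.6% G and C with 12 CpG sites and Fas 56.4% with 11. A GC box, the motif bound by Sp1-type factors, stood 16 to 11 bases before the internal Trp73 start and 47 to 42 bases before the Fas start, and 32.7% of all windows hold it. Cdkn2b held a cyclic AMP response element 46 to 39 bases before its start, a motif present in 1.55% of all windows. Fas also held an AP-1 match 211 to 205 bases before its start (6.75% of all windows) and an E-box 110 to 105 bases before it (6.02%). The p53 decamer was searched for as well and matched in 0 of the 4 windows, against 7.13% of all windows. No motif was found in more than 2 of the 4 windows, and the upstream Trp73 window held none of the 5. A match is a run of letters, not a shown binding site, and these windows say nothing of sites elsewhere in the genes.

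Trp73 (ENSMUSG00000029026) was the most abundant of the 3. It had 768.8 and 793.5 normalized reads in the PC libraries, from 928 and 667 reads, against 2865.4 and 3105.1 in the PD libraries, from 2955 and 3388 reads. The libraries of each group lay close together. The groups did not overlap, as for 99.7% of listed genes, and the lower PD library stood 3.61-fold above the higher PC library. The means were 781.1 ± 17.4 in PC and 2985.2 ± 169.4 in PD (SD, n = 2 each), so that PC held 26.2% of the PD level. On the log2(value + 1) scale the change was -1.93 (SE 0.06). The authors' deposited table gives Trp73 a p-value of 1.09e-106 and a false discovery rate of 2.63e-103, rank 12 of the listed genes, values that belong to the selection of the table. Its change ranked 283 of the 980 lower genes by size. GENCODE M21 lists 7 transcripts of Trp73, and the table has 1 value for the gene. Which of its forms were counted is not stated. The antisense gene Trp73os overlaps its exons by 280 bases, and no source used here states whether counting used the strand, so reads in that overlap cannot be assigned.

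Cdkn2b (ENSMUSG00000073802) was less abundant. It had 136.7 and 149.9 normalized reads in PC, from 165 and 126 reads, and 311.3 and 355.6 in PD, from 321 and 388 reads. Both PC libraries were below both PD libraries, as in 61.5% of listed genes, with the nearest pair 2.08-fold apart. The libraries of a group differed by 1.10-fold in PC and 1.14-fold in PD. The means were 143.3 ± 9.3 in PC and 333.4 ± 31.3 in PD (SD, n = 2 each), a log2 change of -1.21 (SE 0.12). PC thus held 43.0% of the PD level, the smallest of the 3 differences, at rank 747 of the 980 lower genes and 0.21 beyond the limit of the table on the log2 scale. The authors' deposited table lists a false discovery rate of 1.4e-08 for it. No exon of Cdkn2b overlaps that of another gene in GENCODE M21, which has 1 transcript of it.

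Fas (ENSMUSG00000024778) was the least abundant and the least even. It had 17.4 and 45.2 normalized reads in PC, from 21 and 38 reads, against 94.1 and 99.0 in PD, from 97 and 108 reads. Both PC libraries were again lower, as in 61.5% of listed genes, with 2.08-fold between the nearest pair. The PC libraries differed 2.60-fold from each other, whereas the PD libraries differed 1.05-fold. The means were 31.3 ± 19.7 in PC and 96.5 ± 3.5 in PD (SD, n = 2 each), which puts PC at 32.4% of PD, with a log2 change of -1.74 (SE 0.67). Without PC replicate 1 the change was -1.08, and without PC replicate 2 it was -2.41. The direction is the same in both, while the size of the Fas difference depends on which PC library is used. The authors' deposited table gives Fas a p-value of 0.000592 and a false discovery rate of 0.00466, at rank 817. Its exons overlap no other gene in GENCODE M21, which has 5 transcripts of Fas.

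**Figure D1:**
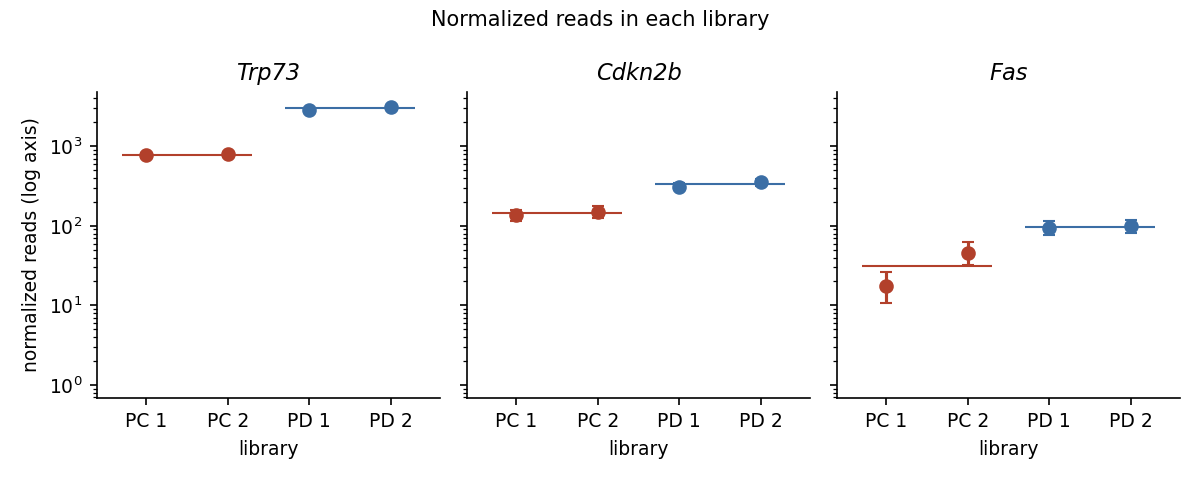
Normalized reads (log axis) of Trp73, Cdkn2b and Fas in the 2 PC libraries and the 2 PD libraries; points are libraries, bars are exact 95% Poisson intervals of the reads, and horizontal lines are group means. Both PC libraries lie below both PD libraries for each gene, as in 61.5% of listed genes. The 2 PC libraries of Fas, at 17.4 and 45.2, stand apart from each other.

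For Trp73 and Cdkn2b the counting error of single libraries was small beside the differences between groups, and for Fas it was wider. Exact 95% Poisson intervals, scaled like the values, ran from 720.2 to 819.9 and from 734.4 to 856.0 normalized reads for Trp73 in PC, and from 2763.0 to 2970.6 and from 3001.4 to 3211.4 in PD. The PC intervals overlap each other, the PD intervals fall just short of touching, and the groups lie far apart. For Cdkn2b the intervals were 116.6 to 159.2 and 124.9 to 178.5 in PC, and 278.1 to 347.3 and 321.1 to 392.8 in PD, with overlap inside each group and none between them. For Fas they were 10.8 to 26.6 and 32.0 to 62.0 in PC, and 76.3 to 114.7 and 81.2 to 119.5 in PD. The groups do not overlap, but the highest PC bound, 62.0, comes near the lowest PD bound, 76.3. The 2 PC intervals of Fas do not overlap, so its PC libraries differed by more than these intervals cover. These intervals treat reads as independent and leave out variation between libraries. Reads without molecular identifiers are not independent molecules, so even the counting error may be wider than they show.

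The distance between libraries of the same group was not used in choosing the 3 genes by name, though a small distance favours a small p. Against the 200 listed genes nearest in mean level, the PC gap of Fas was 1.33 on the log2 scale where the median gap was 0.35, and 97.0% of those genes had a smaller gap. Its PD gap of 0.07 was below the median of 0.28, with 12.5% of the genes smaller. The match is on the mean over 4 libraries, not on the level within PC or PD. Fas stands below its own mean in PC and above it in PD, so the genes compared need not match its level in either group. Trp73 had gaps of 0.05 in PC and 0.12 in PD, against medians of 0.11 and 0.13 among its 200 neighbours in level. Cdkn2b had 0.13 in PC and 0.19 in PD, against 0.18 and 0.18. The median difference between the libraries of a group over all listed genes was 0.01 in PC and -0.01 in PD, which the scaling of the values by size factors nearly fixes.

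**Figure D2:**
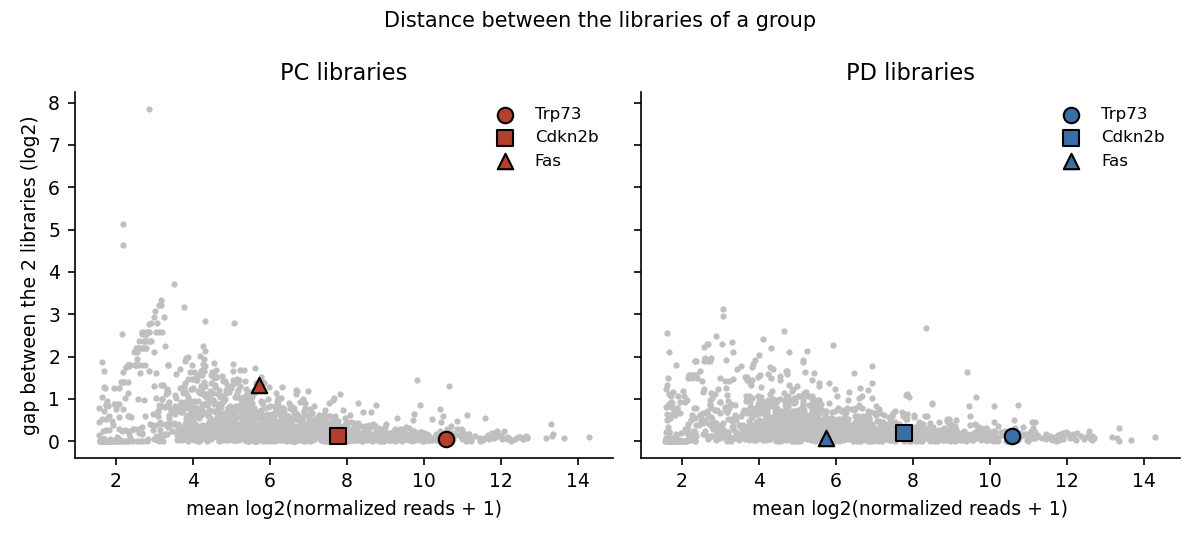
Absolute log2 difference between the 2 libraries of PC (left) and of PD (right) against the mean log2(normalized reads + 1) over 4 libraries; grey points are the other listed genes. Fas lies high in the PC panel at 1.33 and low in the PD panel at 0.07, while Trp73 has 0.05 in PC and 0.12 in PD, and Cdkn2b has 0.13 in PC and 0.19 in PD.

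Per kilobase of annotated exon, the order of levels was Trp73 in PD, Cdkn2b in PD, Trp73 in PC, Cdkn2b in PC, Fas in PD and Fas in PC. The merged exons in GENCODE M21 span 5.53 kb for Trp73, 1.39 kb for Cdkn2b and 2.06 kb for Fas. Trp73 had 141.2 ± 3.1 normalized reads per kb in PC and 539.4 ± 30.6 in PD. Cdkn2b had 103.1 ± 6.7 per kb in PC and 239.9 ± 22.5 in PD, and Fas 15.2 ± 9.5 in PC and 46.8 ± 1.7 in PD (SD, n = 2 each). Neighbours in this order were further apart than their SDs. The order of Trp73 and Cdkn2b within PC rests on merged lengths that include exons of every Trp73 form. Among all listed genes ranked by mean log2 value over the 4 libraries, not per length, Trp73 stood at 74, Cdkn2b at 341 and Fas at 752.

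**Figure D3:**
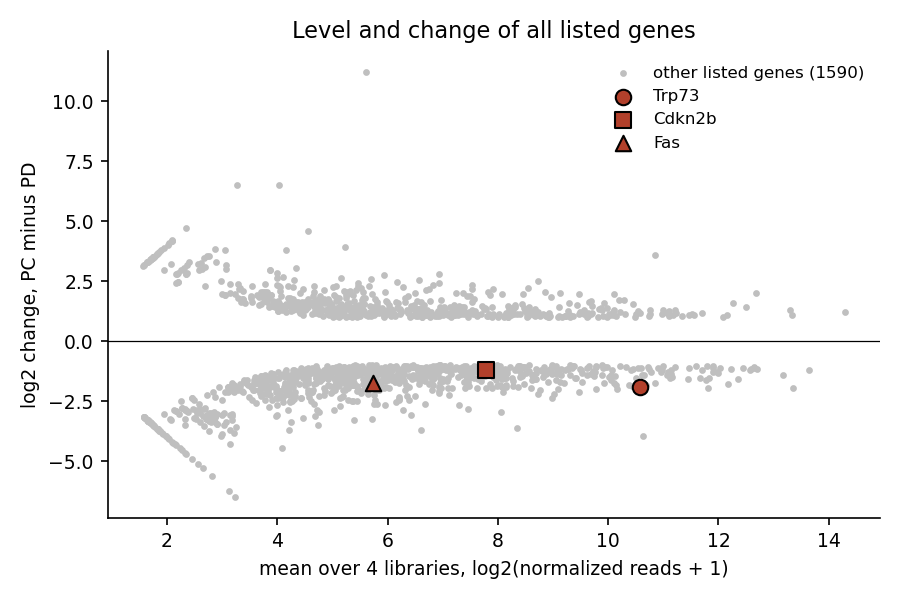
Log2 change, PC minus PD, against the mean log2(normalized reads + 1) over 4 libraries for each listed gene; grey points are the other listed genes. The empty band around 0 is the fold limit of the table, and Trp73 at -1.93, Fas at -1.74 and Cdkn2b at -1.21 lie below it.

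Genes with the most similar pattern were found by the Euclidean distance between log2 values centred on the mean of each gene, over 4 libraries. Nearest to Trp73 were the stem cell chromatin factor gene Utf1 (distance 0.045), Pkd1l2 of the polycystin family (0.064) and the neuronal transcription factor gene Neurod1 (0.090). Utf1 had 1787.0 and 1893.8 normalized reads in PC and 6644.3 and 7460.2 in PD, a higher level than Trp73 with nearly the same steps between libraries. Nearest to Cdkn2b were the ubiquitin-conjugating enzyme gene Ube2g2 (0.033), the RNA-binding motif gene Rbm43 (0.070) and the laminin gene Lamb3 (0.080). Nearest to Fas were Tmem54 (0.070), AA543401 (0.145) and the cilium gene Pifo (0.178), all lower in PC replicate 1 than in PC replicate 2. Tmem54, for instance, had 14.1 and 34.5 normalized reads in PC and 74.7 and 77.0 in PD. The distances among the 3 genes themselves were 0.73 between Trp73 and Cdkn2b, 0.93 between Trp73 and Fas, and 1.00 between Cdkn2b and Fas. Exons of Pkd1l2, Neurod1, Ube2g2 and Tmem54 overlap those of other genes in GENCODE M21, so some of their reads are of uncertain origin. With 4 libraries such likeness is a description only.

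Trp73 and Cdkn2b both lie on chromosome 4 and Fas on chromosome 19. The next protein-coding genes on either side were not in the table for any of the 3: Ccdc27 and Wrap73 beside Trp73, the INK4 gene Cdkn2a and Dmrta1 beside Cdkn2b, and Acta2 and Ch25h beside Fas. Those genes are not analysed here. The nearest listed genes were separated by 35 and 8 coding genes from Trp73 (Slc45a1 and Mmel1), by 54 and 11 from Cdkn2b (Frem1 and Tek), and by 23 and 49 from Fas (Dkk1 and Cyp2c69). Each of these 6 genes had lower values in PC, against 61.5% of all listed genes. In the authors' deposited table the false discovery rate of Dkk1, a Wnt antagonist, was 0.055, and the other 5 were under 0.05.

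Across 8 lists of p53 regulators and targets, CDK inhibitors, G1 cyclins and E2F factors, the TGF-beta cytostatic arm, death receptors, the BCL2 family and multiciliation factors linked to p73, 5 of 138 genes were listed. The lists leave out Trp73, Cdkn2b and Fas, which are all listed, and this lowers the count. It is 3.62%, where 5.07% of the genes tested by the authors were listed, so the count says nothing particular about these lists. Of the 5 genes, 3 fell and 2 rose at a false discovery rate below 0.05 in the authors' deposited table. By that rule 43.9% of all listed genes fell and 26.4% rose. The median log2 change of the 5 was -1.15, beside -1.17 over all listed genes. None of the 21 G1 cyclin, CDK, pocket protein and E2F genes on these lists was in the table. Nor was any of the 22 death receptor and signalling complex genes or the 18 BCL2 family genes on them. With 5.07% of all tested genes in the table, a list of that length need hold none. The levels of Trp53, Cdkn1a, Mdm2, Fasl, Fadd and Casp8 are therefore not analysed here. The lists are not complete families. Bcl2l10, a BCL2 family gene outside them, was in the table and lower in PC, with a log2 change of -1.417.

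Of the 7 other CDK inhibitor genes on the list used here, 1 was in the table, and it moved opposite to Cdkn2b. Cdkn2c, which encodes p18INK4c, an inhibitor of CDK4 and CDK6 like p15INK4b, had 312.3 and 343.8 normalized reads in PC and 77.6 and 85.2 in PD. It rose at a false discovery rate of 2.2e-19 in the authors' deposited table. The other 6 on the list, among them Cdkn1a, Cdkn1b and Cdkn2a, were not in the table. Inca1, a CDK inhibitor gene outside the list, was in the table and higher in PC, with a log2 change of 1.889.

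Of 21 p53 family members and regulators only Abl1 was listed, a tyrosine kinase known to phosphorylate and activate p73 after DNA damage. It had 9163.8 and 9822.5 normalized reads in PC and 3712.9 and 3417.6 in PD. It rose at a false discovery rate of 2.32e-94 in the authors' deposited table, opposite in direction to Trp73. Exons of Abl1 overlap those of the antisense gene Gm13427 by 94 bases. Of 31 p53 targets, Fas apart, only the polo-like kinase gene Plk2 was listed, with 4576.5 and 4306.4 in PC and 9627.1 and 10103.4 in PD. It fell at a false discovery rate of 6.63e-80 in the authors' deposited table.

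Of 17 genes of the TGF-beta cytostatic arm only Myc was listed. Myc, a growth-promoting factor known to repress Cdkn2b together with Miz1, had 169.0 and 190.3 normalized reads in PC and 452.8 and 599.4 in PD, and fell at a false discovery rate of 2.27e-12 in the authors' deposited table. Of 10 multiciliation factors only the cyclin O gene Ccno was listed, with 197.2 and 177.3 in PC and 435.4 and 431.7 in PD. It fell at a false discovery rate of 3.15e-11 in the authors' deposited table.

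The annotation columns of the deposited table link the 3 genes in part. Trp73 and Fas share 2 KEGG pathways, p53 signaling and measles, Cdkn2b and Fas share 1, pathways in cancer, and Trp73 carries no gene ontology term. Cdkn2b and Fas each carry 50 process terms, the most that the table gives for any gene, and share 15, among them cell proliferation. Of 130 listed genes with that term 72.3% were lower in PC, beside 61.5% of all listed genes. Of 128 with programmed cell death, which Fas carries, 64.1% were lower. Cdkn2b also carries negative regulation of cell proliferation, with 66.7% of 18 listed genes lower, and regulation of cell cycle, with 63.6% of 44 lower.

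In the KEGG p53 signaling pathway 3 further genes were listed, and they split. Rprm, which encodes the G2 arrest mediator Reprimo, had 183.9 and 186.8 normalized reads in PC and 443.1 and 400.5 in PD. The stress-response gene Gadd45b had 1870.7 and 1921.2 in PC and 897.9 and 809.3 in PD. The testis cytochrome c gene Cyct had 249.4 and 242.7 in PC and 110.5 and 113.6 in PD. In the authors' deposited table Rprm fell, and Gadd45b and Cyct rose, at false discovery rates of 1.64e-10, 6.42e-31 and 9e-07 in that order. In the KEGG cell cycle pathway, Cdkn2b apart, 3 genes rose (Abl1, Gadd45b and Cdkn2c) and 1 fell (Myc) at a false discovery rate below 0.05 in the authors' deposited table, where 26.4% of all listed genes rose and 43.9% fell by that rule.

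In the KEGG TGF-beta pathway, Cdkn2b apart, 5 genes fell and 1 rose by the same rule in the authors' deposited table, beside 43.9% and 26.4% of all listed genes. The genes that fell were the Nodal antagonists Lefty1 and Lefty2, the ligand genes Bmp8a and Inhbc, and Myc, and the gene that rose was the BMP target Id2. In the KEGG apoptosis pathway, Fas apart, 4 of the 8 genes reported fell and 4 rose by that rule in the authors' deposited table. The cathepsin gene Ctsw, with 19.1 and 29.7 normalized reads in PC and 129.9 and 182.4 in PD, was among those that fell. The necroptosis, TNF, Hippo, FoxO, senescence and neurotrophin pathways held 4 fallen and 0 risen, 4 and 1, 10 and 3, 3 and 1, 2 and 4, and 2 and 4 further genes in that order. Over the 10 pathways together, 31 of the 49 different genes reported fell, 13 rose and 5 did not pass in the authors' deposited table, with a median log2 change of -1.18 beside -1.17 over all listed genes. That is 63.3% fallen and 26.5% risen, against 43.9% and 26.4% of all listed genes, with no test of the difference. These shares also reflect how many genes passed: all but 5 of the 49 did, against 70.2% of all listed genes. By direction alone 34 of the 49 were lower and 15 higher, where 61.5% of all listed genes were lower.

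**Figure D4:**
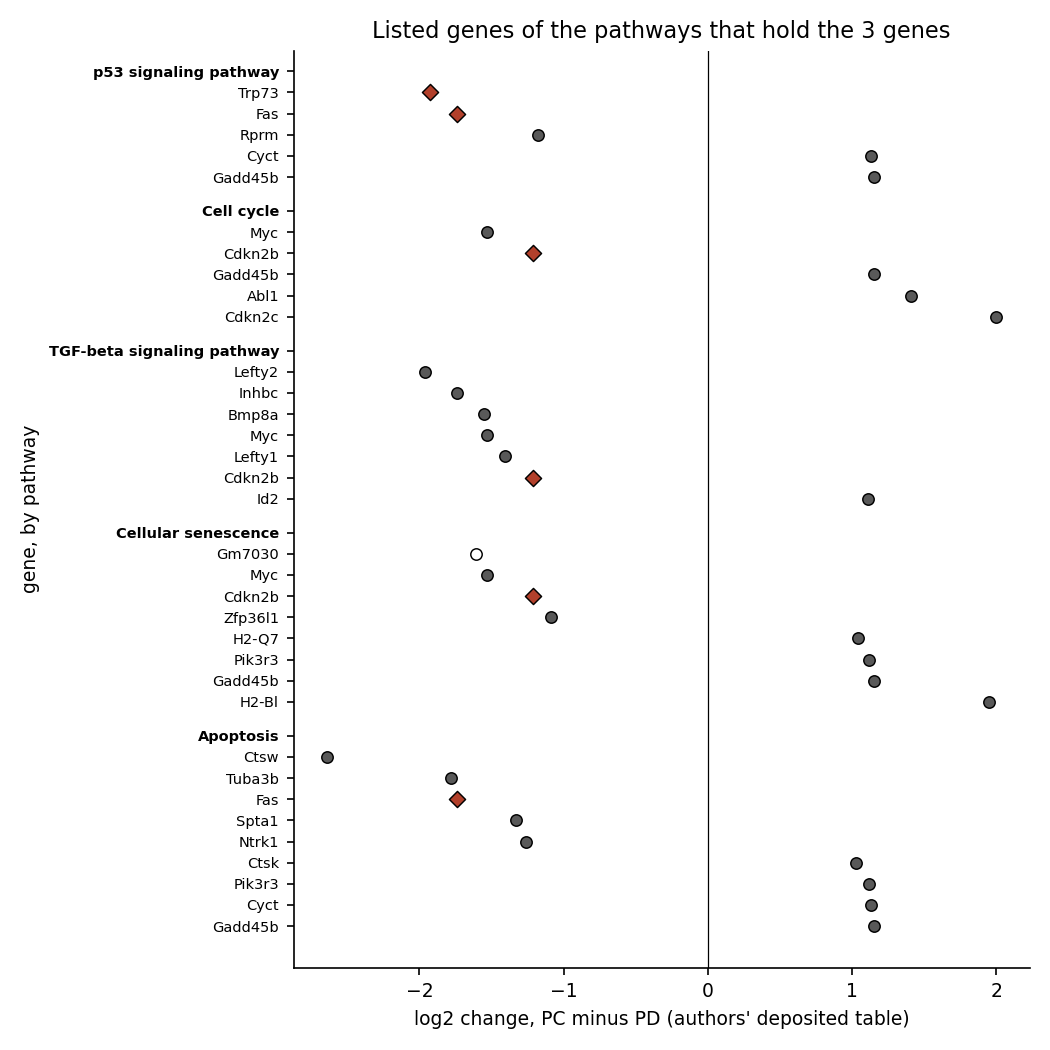
Log2 change, PC minus PD, in the authors' deposited table for the reported listed genes of 5 KEGG pathways that hold Trp73, Cdkn2b or Fas; diamonds are the 3 genes, circles the others, and open circles have a false discovery rate of 0.05 or more. The TGF-beta pathway has 1 gene above 0, Id2, while the p53, cell cycle, senescence and apoptosis pathways have genes on both sides.

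Of 12 embryonic stem cell markers only Tdh, Utf1 and Lin28a were listed, so the labelled cell type could not be checked against Pou5f1, Nanog or Sox2. Their summed level was 14401.5 and 13885.0 normalized reads in PC and 34231.0 and 35052.0 in PD. Of 5 blood cell markers 1 was listed, the T cell gene Cd3e, with 131.7 and 130.9 in PC and 298.7 and 250.2 in PD. The fibroblast list had 1 of 5 listed, Col3a1, at 38.9 and 48.8 in PC and 89.2 and 113.6 in PD. The epidermis list had 1 of 4, Krt5, at 0.0 and 3.6 in PC and 31.0 and 14.7 in PD, and the neural progenitor list had 0 of 4. These markers were lower in PC as Trp73, Cdkn2b and Fas were, beside 61.5% of all listed genes. Only markers that passed the limits of the table can appear here, and the other markers are not analysed. Their part in the values of the 3 genes was not tested.

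**Figure D5:**
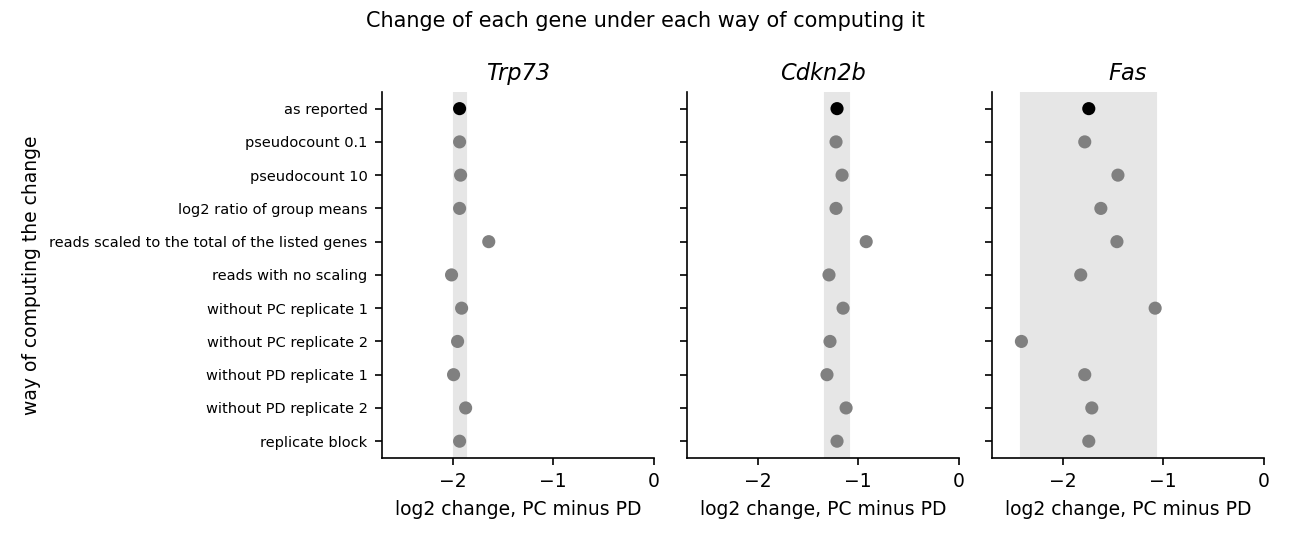
Log2 change, PC minus PD, of Trp73, Cdkn2b and Fas as reported (black) and under 10 other ways of computing it (grey); the shaded band is the reported value ± the pooled SD between libraries. All values are below 0, and Fas spans the widest range, -2.41 to -1.08.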

How the data were processed

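RNA-seq values of 4 libraries, 2 PC and 2 PD, grouped by the labels' titles, were read from 1 table of the whole series. The authors deposited log2 values per library, group means, a log2 fold change of PC over PD, and p-values with false discovery rates, per the file headers; no source used here names their test, counting tool, strand setting or annotation. Bowtie 0.12.2 and mm9 appear, with no role, in the submitters' processing notes. Once the log was undone and 1 subtracted, 100.0% of values in each library were whole multiples of a step, within 0.001 reads, so the deposited log2 values are log2(reads divided by a size factor, plus 1). The size factors were 1.2070 and 0.8406 in PC and 1.0313 and 1.0911 in PD. The reads on the listed genes, 601713 and 433684 in PC and 632042 and 683777 in PD, cover a selection of genes, so the full depth is unknown.

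No test of the change of Trp73, Cdkn2b and Fas was made, because the table was selected on it. Means, SDs, the SE of the difference of mean log2(value + 1) and exact 95% Poisson intervals were computed with Python 3.11.15, numpy 2.4.6, pandas 2.3.3 and scipy 1.17.1, and steps, distances and motif search were checked on simulated data. Other genes count as risen or fallen at a false discovery rate below 0.05 in the authors' deposited table, which was adjusted over all genes tested. No filter on low values was applied to the 3 genes, and 3 of 3 are reported. Named besides them are the listed genes of the 8 pathway lists and the listed cell type markers. Also named are the 3 genes nearest in pattern to each of the 3, and the nearest listed gene on either side. Genes of the KEGG pathways, Bcl2l10 and Inca1 were chosen after their values were seen. Gene order and exon lengths are from GENCODE M21 on GRCm38. The 3 genes and the lists were chosen with earlier results of these data known, and the KEGG pathways and motifs after values were seen. In the KEGG pathways 1 listed gene is not reported here. Alternatives were other pseudocounts, the ratio of means, other scalings, leaving out each library, differences within replicate numbers, and a stricter false discovery rate or a filter on low values for the pathway counts.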

Additional observations from a re-analysis of the deposited data

How the results depend on the processing

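The log2 change, PC minus PD, of Trp73, Cdkn2b and Fas was below 0 under all 10 alternatives run for each. Both PC libraries lay on one side of both PD libraries for each gene, as for 99.7% of listed genes. Other pseudocounts, the ratio of means, leaving out a library or pairing therefore could not turn the sign, and only the sizes are informative there. Scaling the reads to the total of the listed genes moved Trp73 to -1.64 and Cdkn2b to -0.92, which is inside the fold limit of the table. That scaling raises the median over all listed genes by 0.28, as most of them were lower in PC. Reads with no scaling gave -2.01 for Trp73. Leaving out each library in turn gave -1.99 to -1.87 for Trp73, -1.31 to -1.12 for Cdkn2b and -2.41 to -1.08 for Fas. Only for Fas did a left-out library move the change by over 1.5 times: without PC replicate 1 it was -1.08 and without PC replicate 2 it was -2.41. With the replicate number as a block, the mean of the differences was -1.93 for Trp73, -1.21 for Cdkn2b and -1.74 for Fas, as without pairing, and the differences within numbers 1 and 2 were -2.37 and -1.11 for Fas. Deviations of same-numbered libraries from their group means did not correlate over the 1593 genes (r = -0.00). That value cannot settle whether same-numbered libraries shared a culture or a batch, and the main values use no pairing. The count of pathway genes, 3 lower and 2 higher, was the same at a false discovery rate under 0.01 and with a mean of at least 10 normalized reads. Fas, with 21 and 38 reads in PC, is the gene that depth limits most.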
